A study of Mus musculus with 3 samples.

Results

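The genes of the extracellular adenosine pathway were described in cells sorted from tumor-bearing mice, and their levels stood in a different order in each of 3 libraries. The genes were Entpd1, Nt5e, Adora2a, Adora2b, Adora3, Ada and Dpp4, 7 of the 36835 genes with a level in the deposited table. They were chosen by name, as genes of this pathway, with earlier results of these data known. Entpd1 encodes CD39, the surface enzyme that strips phosphates from ATP and ADP to leave AMP, and Nt5e encodes CD73, the surface enzyme that turns AMP into adenosine. Adenosine outside the cell is read by G protein coupled receptors. The receptors encoded by Adora2a and Adora2b raise cyclic AMP, and the receptor encoded by Adora3 couples to the inhibitory G proteins. Ada encodes adenosine deaminase, which converts adenosine to inosine and so ends the signal, and Dpp4 encodes CD26, a surface dipeptidyl peptidase known as the docking protein of adenosine deaminase on human T cells. In tumors the pathway is known for restraining T cells and for acting on macrophages.

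The cells came from BALB/C mice bearing tumors of the mouse renal line Renca, injected into the kidney. The labels name Renca, and the study's text names its derivative Renca Ch+ L+ (Renca Cherry Luciferase) for this experiment. The labels name CD4 T lymphocytes, type-2 macrophages (M2) and type-1 macrophages (M1), sorted with antibodies to CD45.2, TCRbeta, CD4, F4/80 and CD11b, the macrophages from tumors. The 3 libraries all drew on a harvest of 30 tumors and 4 spleens, so that animals were pooled and each subset had 1 library with no replicate. The labels give day 14 after injection for the tumors in 1 field and day 16 for the harvest in another, and for the CD4 T cells they name both spleen and tumor as the tissue. In the study's gates M2 were F4/80 high with intermediate CD11b, and M1 were F4/80 intermediate with high CD11b. No treatment other than the tumor was given in the labels.

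The labels of 2 libraries went against their markers. All 15 T-cell genes examined were highest in the library labelled M2, where they summed to 2230 FPKM (a level scaled to the length of the transcript and to the depth of the library), against 14.6 FPKM in that labelled M1 and 19.0 FPKM in that labelled CD4. Cd247, which encodes a chain of the T-cell receptor complex, was listed at 0 in the libraries labelled M1 and CD4. The 12 macrophage genes summed to 8230 FPKM in the library labelled M1, 632 FPKM in that labelled M2 and 12800 FPKM in that labelled CD4, and each of the 12 was lowest in that labelled M2. Foxp3, which marks regulatory T cells, stood at 24.9 FPKM in the library labelled M2 and was listed at 0 in the other two. Each library is therefore named by its label throughout, and no direction given here says which cell type it holds. The 12 kidney epithelial genes summed to 122, 200 and 99.1 FPKM in the libraries labelled M1, M2 and CD4, and 5 B-cell genes to 0.406, 47.0 and 0.492 FPKM. In the same order, 5 markers of CD8 and NK cells summed to 3.55, 21.4 and 0.371 FPKM, 5 of dendritic cells to 8.76, 126 and 2.86 FPKM, 5 of neutrophils to 47.2, 196 and 10.4 FPKM, 5 of endothelium to 6.01, 36.0 and 5.57 FPKM, 5 of fibroblasts to 6.88, 9.22 and 28.8 FPKM, and 5 of mast cells to 0.205, 1.65 and 0.114 FPKM. In the library labelled M2, Ccr7 (122 FPKM) made up most of the dendritic sum and Pecam1 (35 FPKM) most of the endothelial sum. S100a8 (84.5 FPKM) and S100a9 (110 FPKM) made up most of the neutrophil sum. Zbtb46, Ly6g, Kdr and Vwf, of the same lists, were lowest in that library. The part of these other cells in the results was not tested. In sorted pools, fewer cells of a type and less RNA per cell cannot be told apart.

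Most of the genes were measured through a single transcript, and the sequences that separate the exceptions are shown before the values. Entpd1 (NCBIM37, chromosome 19, 40686856 to 40816092, plus strand) has 11 annotated transcripts, of which 2 were above 0. They begin at separate first exons and join the same second exon, so the bases across that join tell them apart. The next 2 lines give 16 bases of the first exon in lower case and 24 bases of the second exon, from position 40785653, in capitals, read from NCBIM37. The first exon of Entpd1-003 ends at 40687013 and that of Entpd1-001 at 40734390.

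Entpd1-003: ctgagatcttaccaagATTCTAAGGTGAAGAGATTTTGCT

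Entpd1-001: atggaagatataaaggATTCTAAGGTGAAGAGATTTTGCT

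The lower-case stretches come from separate exons, whereas the capitals are shared. The coding sequence ran to 1620 bases in Entpd1-003 and to 1533 bases in Entpd1-001. The starts also carry different promoter sequence, which is shown because a transcript with a level begins at each. Promoters were taken from RefSeq (GRCm38.p6) as 250 bases before and 50 after a start, and 6 of the 7 genes matched, with 7 promoters in all; Adora2a was not among them. Capitals mark the GC box GGGCGG and the ETS core GAGGAA on either strand. The upstream Entpd1 promoter matched NCBIM37 at chr19:40686606-40686905, a window that holds the start of Entpd1-003, and the downstream promoter matched at chr19:40734010-40734309 and holds the start of Entpd1-001. Both are on the plus strand.

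Entpd1 upstream promoter: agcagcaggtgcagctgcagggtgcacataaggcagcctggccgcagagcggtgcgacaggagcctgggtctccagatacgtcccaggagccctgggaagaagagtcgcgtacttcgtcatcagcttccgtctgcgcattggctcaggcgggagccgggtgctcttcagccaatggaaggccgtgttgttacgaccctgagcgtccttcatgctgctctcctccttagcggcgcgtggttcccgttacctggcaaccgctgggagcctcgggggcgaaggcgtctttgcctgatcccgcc

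Entpd1 downstream promoter: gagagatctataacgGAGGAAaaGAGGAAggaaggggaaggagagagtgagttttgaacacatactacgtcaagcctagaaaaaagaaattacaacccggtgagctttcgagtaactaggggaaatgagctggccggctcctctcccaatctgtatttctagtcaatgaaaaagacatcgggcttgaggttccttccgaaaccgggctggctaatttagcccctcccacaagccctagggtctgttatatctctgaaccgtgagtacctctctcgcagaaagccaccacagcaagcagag

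The upstream window had 64.0% G and C with 23 CpG pairs and neither motif, and the downstream window 48.7% with 10 CpG pairs and 2 ETS cores close to its 5′ end. Over all 32851 promoters of that length the median was 52.7% G and C with 7 CpG pairs, 35.7% held a GC box and 28.3% an ETS core. The promoters of 2 receptor genes are shown because Adora2b had the most GC boxes and Adora3 the fewest CpG pairs among the 7 windows. They lay for Adora2b at chr11:62062236-62062535 and for Adora3 at chr3:105707089-105707388 of NCBIM37, both on the plus strand.

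Adora2b promoter: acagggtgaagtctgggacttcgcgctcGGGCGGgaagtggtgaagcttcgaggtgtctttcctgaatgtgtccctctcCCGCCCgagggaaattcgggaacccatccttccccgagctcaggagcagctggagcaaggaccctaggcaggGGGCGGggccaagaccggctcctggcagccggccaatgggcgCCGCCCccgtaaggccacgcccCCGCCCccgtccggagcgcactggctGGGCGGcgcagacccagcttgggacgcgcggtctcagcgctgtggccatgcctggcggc

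Adora3 promoter: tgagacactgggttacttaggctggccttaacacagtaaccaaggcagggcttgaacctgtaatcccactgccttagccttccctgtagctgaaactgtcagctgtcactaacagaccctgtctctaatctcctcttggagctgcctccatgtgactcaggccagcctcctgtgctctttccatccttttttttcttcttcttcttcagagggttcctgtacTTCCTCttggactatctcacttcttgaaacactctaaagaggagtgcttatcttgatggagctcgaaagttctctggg

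The Adora2b window held 6 GC boxes, a count reached by 1.35% of all promoters, with 70.0% G and C and 27 CpG pairs. The Adora3 window held no GC box, 1 ETS core, 48.3% G and C and 1 CpG pair. Among the others, Nt5e had 71.0% G and C and 4 GC boxes, some of them overlapping, Ada 68.0% and 2 GC boxes, and Dpp4 45.3% with no GC box and 1 ETS core. Of 8 motifs searched after these promoters were viewed, ACGTG, the core of the hypoxia response element, TGACGTCA, the cyclic AMP response element, and CACGTG, the E box, which contains ACGTG, matched in none of the 7 windows, against 19.6%, 1.79% and 7.15% of all promoters. TGACG, which lies within TGACGTCA, matched in both Entpd1 windows (20.8% of all promoters), AGATAA in those of Dpp4 and Adora3 (11.2%), and GAGGAAGT, which contains the ETS core, in that of Adora3 (3.20%). A match is a description of the letters and does not show binding.

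Entpd1, the step from ATP to AMP, was lowest in the library labelled M2. Its level was 13.6 FPKM in the library labelled M1, 4.63 FPKM in that labelled M2 and 18.5 FPKM in that labelled CD4. Depth was estimated from the smallest step of the values at 6.14e+07, 5.97e+07 and 7.2e+07 fragments in the libraries labelled M1, M2 and CD4, so that about 2664, 879 and 4239 of them stood behind these levels, and the 95% Poisson intervals, which cover counting error only, ran from 13.1 to 14.1, from 4.32 to 4.94 and from 18.0 to 19.1 FPKM. The level in the library labelled CD4 was 4.00 times that in the library labelled M2 (counting interval 3.71 to 4.30) and 1.36 times that in the library labelled M1 (1.30 to 1.43). The 2 transcripts kept nearly the same proportion in every library. Entpd1-003 stood at 7.75, 2.65 and 10.7 FPKM and Entpd1-001 at 5.86, 1.98 and 7.85 FPKM in the libraries labelled M1, M2 and CD4, a ratio of 1.32, 1.34 and 1.36. The 2 transcripts share 2282 bases and differ by 127 bases found only in Entpd1-003 and 1939 found only in Entpd1-001, so the split between them is an estimate by the authors' software. The remaining 9 transcripts were listed at 0 in all 3 libraries. Gm8783 lies within an intron of Entpd1 on the same strand with no shared exonic base, and its level was 13.1, 10 and 11.8 FPKM.

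Nt5e, the step from AMP to adenosine, was lowest in the library labelled CD4. The gene lies on chromosome 9 from 88222447 to 88266927 on the plus strand of NCBIM37 and has a single annotated transcript of 3580 bases in 9 exons. Its level was 13.7 FPKM in the library labelled M1 (3010 estimated fragments, counting interval 13.2 to 14.2), 8.95 FPKM in that labelled M2 (1912 fragments, 8.55 to 9.35) and 1.94 FPKM in that labelled CD4 (501 fragments, 1.78 to 2.12). The library labelled M1 was 7.06 times the library labelled CD4 (6.42 to 7.78), and the library labelled M2 was 4.61 times that library (4.18 to 5.10). Between the libraries labelled M1 and CD4, both rich in macrophage genes, 97.0% of the 12703 genes with at least 1 FPKM in a library had a smaller change than Nt5e on the log2 scale of FPKM + 1. The 2 enzymes thus stood in different proportions. The ratio of Entpd1 to Nt5e was 0.993 in the library labelled M1, 0.517 in that labelled M2 and 9.54 in that labelled CD4. In the library labelled M1 the counting intervals of the 2 genes overlapped.

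**Figure D1:**
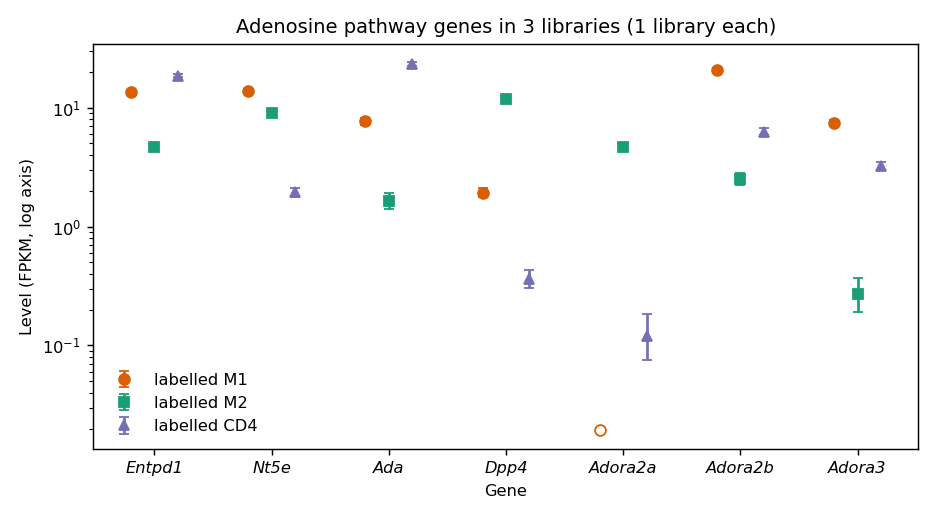
Level of each gene (FPKM, log axis) in the libraries labelled M1 (circles), M2 (squares) and CD4 (triangles), 1 library each, with bars for the 95% Poisson interval of the estimated fragments. The open circle stands at the level of 3 fragments for Adora2a, listed at 0 in the kept row of the library labelled M1, and the library labelled M2 is highest for Dpp4 and Adora2a only.

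Adora2a was highest in the library labelled M2, and the other two receptor genes in that labelled M1. Adora2a (chromosome 10, 74779688 to 74797533, plus strand) was read from 1 transcript, Adora2a-201, of 2534 bases. In the row with values in all 3 columns, it was listed at 0 in the library labelled M1, at 4.64 FPKM in that labelled M2 (701 estimated fragments, 4.30 to 4.99) and at 0.119 FPKM in that labelled CD4 (22 fragments, 0.0756 to 0.183). The library labelled M2 was 39.0 times that labelled CD4 (25.5 to 62.6), and no fold is given against the library labelled M1. The identifier has 5 further rows with a value in 1 column each, 2 of the library labelled M1 with 0.366 and 1.18 FPKM and 3 of the library labelled M2 with 1.71, 3.28 and 1.74 FPKM. Summed over all rows, Adora2a came to 1.55, 11.4 and 0.119 FPKM, so the library labelled M1 then stood above that labelled CD4, and the 0 of the kept row does not mean that the gene was absent there.

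Adora2b was the highest of the 7 genes in the library labelled M1. It lies on chromosome 11 from 62062486 to 62079955 on the plus strand, with 1 transcript of 1845 bases in 2 exons. Its level was 20.9 FPKM in the library labelled M1 (2364 estimated fragments, 20.0 to 21.7), 2.52 FPKM in that labelled M2 (278 fragments, 2.24 to 2.84) and 6.28 FPKM in that labelled CD4 (834 fragments, 5.86 to 6.72). The first of these was above 81.0% of the coding genes with a level in that library. The library labelled M1 was 8.29 times that labelled M2 (7.32 to 9.43) and 3.33 times that labelled CD4 (3.07 to 3.61).

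Adora3 followed the same order of libraries at lower levels. The symbol is carried by 2 gene records in the annotation, and only that of the receptor (chromosome 3, 105673776 to 105711846, plus strand) was used. Its transcript Adora3-201 is named by the join of its 2 exons, which end at 105708070 and begin at 105710207, with the second exon in capitals.

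Adora3-201: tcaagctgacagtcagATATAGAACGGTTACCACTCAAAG

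Adora3 stood at 7.38 FPKM in the library labelled M1 (1074 estimated fragments, 6.95 to 7.84), at 0.270 FPKM in that labelled M2 (38 fragments, 0.190 to 0.369) and at 3.23 FPKM in that labelled CD4 (551 fragments, 2.96 to 3.51). The library labelled M1 was 27.3 times that labelled M2 (19.8 to 38.8) and 2.28 times that labelled CD4 (2.06 to 2.54). The other transcript of the record shares 1065 bases with Adora3-201 and was listed at 0 in all 3 libraries. Among the 51-base words of each gene's coding transcripts, 51 bases being the read length, Adora3 shared 5 with another gene (Ppm1h, 0.202% of its words), and none of the 7 genes shared a word with another of them.

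Set side by side on the FPKM scale, the receptors made up different mixtures. The 3 genes summed to 28.3 FPKM in the library labelled M1, 7.43 FPKM in that labelled M2 and 9.63 FPKM in that labelled CD4. Adora2b supplied 73.9% of the sum in the library labelled M1 and 65.2% in that labelled CD4. In the library labelled M2, Adora2a supplied 62.4%, Adora2b 33.9% and Adora3 3.63%. These values rest on the kept row of Adora2a. With all rows summed the receptors came to 29.8, 14.2 and 9.63 FPKM in the libraries labelled M1, M2 and CD4, so that the library labelled M2 stood above that labelled CD4, and in the library labelled M2 Adora2a then supplied 80.3%, Adora2b 17.8% and Adora3 1.90%. Adora1, the remaining adenosine receptor, which also couples to inhibitory G proteins, was at 0.0182, 0.0161 and 0.149 FPKM in the libraries labelled M1, M2 and CD4.

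Ada, the enzyme that removes adenosine, was the highest of the 7 genes in the library labelled CD4. The gene lies on chromosome 2 from 163552320 to 163575975 on the minus strand, and its level came from Ada-001, of 1688 bases in 12 exons. The levels were 7.66 FPKM in the library labelled M1 (794 estimated fragments, 7.14 to 8.21), 1.63 FPKM in that labelled M2 (165 fragments, 1.4 to 1.91) and 23.1 FPKM in that labelled CD4 (2806 fragments, 22.2 to 24.0). The library labelled CD4 was 14.2 times that labelled M2 (12.1 to 16.7) and 3.02 times that labelled M1 (2.79 to 3.27). Against Nt5e, which makes adenosine, the ratio of Ada to Nt5e was 0.559 in the library labelled M1, 0.182 in that labelled M2 and 11.9 in that labelled CD4. The libraries labelled M1 and CD4, both rich in macrophage genes, differed in both of these genes, Nt5e being higher in the first and Ada in the second.

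Dpp4 had the reverse order and was the highest of the 7 genes in the library labelled M2. It lies on chromosome 2 from 62168130 to 62250288 on the minus strand, and Dpp4-001, of 5268 bases in 26 exons, was alone among its 6 transcripts in being above 0. The level was 1.93 FPKM in the library labelled M1 (624 estimated fragments, 1.78 to 2.09), 11.7 FPKM in that labelled M2 (3684 fragments, 11.3 to 12.1) and 0.364 FPKM in that labelled CD4 (138 fragments, 0.306 to 0.430). The library labelled M2 was 32.1 times that labelled CD4 (27.1 to 38.4) and 6.06 times that labelled M1 (5.57 to 6.61). A further row added 1.23 FPKM in the library labelled M2 and another 0.184 FPKM in that labelled CD4, for sums of 12.9 and 0.548 FPKM. An antisense gene, Gm13561, overlaps 232 exonic bases of Dpp4 and was listed at 0 in all 3 libraries; the TruSeq RNA kit named in the labels does not mark strand, so reads of the 2 genes in that stretch cannot be told apart.

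**Figure D2:**
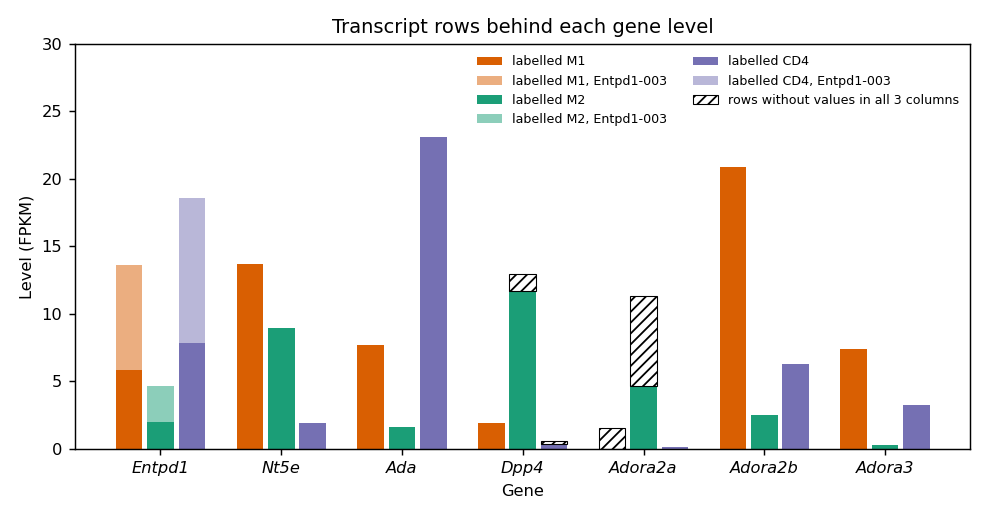
Level of each gene (FPKM, linear axis from 0) in the libraries labelled M1, M2 and CD4, left to right, with the paler part of Entpd1 for Entpd1-003 and hatching for rows without values in all 3 columns. Hatched rows add 6.72 FPKM to Adora2a in the library labelled M2 and 1.55 FPKM in that labelled M1, and the 2 parts of Entpd1 keep nearly the same proportion.

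Ordered by level, the genes formed a different ladder in each library. In the library labelled M1 the order from the highest was Adora2b, Nt5e, Entpd1, Ada, Adora3, Dpp4 and Adora2a, and the counting intervals overlapped between Nt5e and Entpd1 and between Ada and Adora3. In the library labelled M2 it was Dpp4, Nt5e, Adora2a, Entpd1, Adora2b, Ada and Adora3, with an overlap between Adora2a and Entpd1. With all rows summed Adora2a, at 11.4 FPKM, came after Dpp4 and before Nt5e there, and the overlap no longer held. In the library labelled CD4 it was Ada, Entpd1, Adora2b, Adora3, Nt5e, Dpp4 and Adora2a, with no overlap between neighbours. The median over coding genes above 0 was 4.53, 4.70 and 4.56 FPKM in the libraries labelled M1, M2 and CD4.

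Between libraries, a gene was called past the fold where the log2 ratio of FPKM + 1 was at least 1 in size. That scale understates the change of low genes, and with 1 library each no test was possible. Between the libraries labelled M2 and CD4, 7 of 7 genes passed, 3 higher and 4 lower in that labelled M2, where 32.0% of 12703 genes passed, 17.0% higher and 15.0% lower. The log2 ratios were 3.22 for Dpp4, 2.33 for Adora2a and 1.76 for Nt5e, and -1.05 for Adora2b, -1.73 for Adora3, -1.79 for Entpd1 and -3.19 for Ada. Dpp4 and Ada, at the 2 ends, exceeded 95.2% and 95.1% of all genes in the size of the change. The median was -1.05 over the 7 genes and 0.10 over all genes.

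Between the libraries labelled M2 and M1, 6 of 7 genes passed, 2 higher and 4 lower in that labelled M2, against 30.8% of all genes, 16.6% higher and 14.2% lower. Adora2a (2.49) and Dpp4 (2.12) were higher, and Entpd1 (-1.38), Ada (-1.72), Adora2b (-2.64) and Adora3 (-2.72) lower in log2 ratio. Nt5e, at -0.56, did not pass. The median of the 7 genes was -1.38, beside 0.09 over all genes.

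Between the libraries labelled CD4 and M1, both of which hold macrophage genes, 4 of 7 genes passed, 1 higher and 3 lower in that labelled CD4, against 13% of all genes, 6.37% higher and 6.60% lower. Ada was higher with a log2 ratio of 1.48, and Nt5e (-2.32), Adora2b (-1.59) and Dpp4 (-1.10) were lower. Adora3, at -0.99, lay just inside the threshold, and Entpd1 (0.42) and Adora2a (0.16) did not pass; for Adora2a the ratio turned to -1.19 when all of its rows were summed, and for Dpp4 it became -0.92. The 3 comparisons share their libraries pairwise and are not independent of each other.

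**Figure D3:**
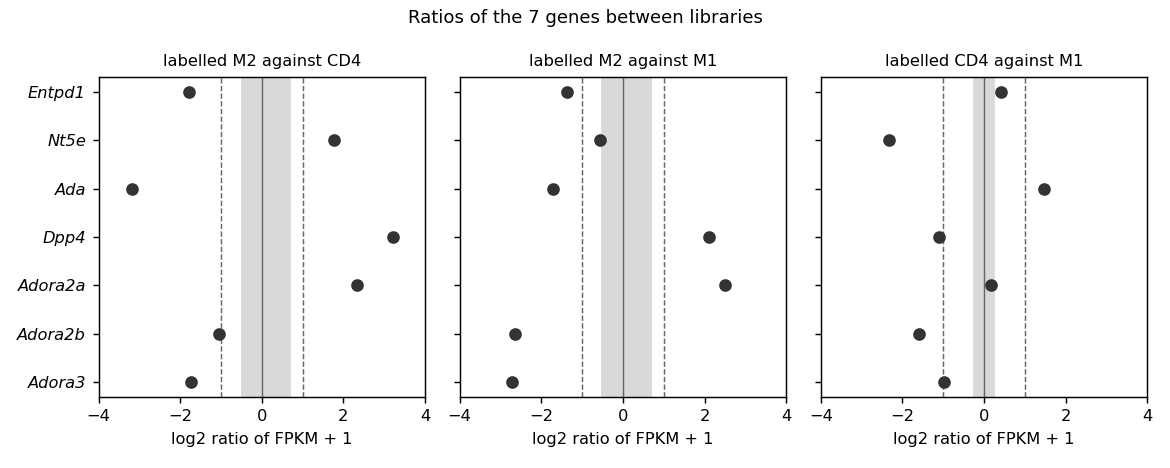
Log2 ratio of FPKM + 1 for each gene between the libraries labelled M2 and CD4, M2 and M1, and CD4 and M1. Dashed lines mark a ratio of 2-fold in either direction and the grey band the middle 50% of all 12703 genes; Ada and Dpp4 lie farthest out on the left and right of the first panel, at -3.19 and 3.22.

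The genes did not all move as the markers of a single cell type did. The 12 macrophage markers stood in the library labelled M2 at 2.95% to 15.3% of their level in that labelled CD4, with a median of 4.44%. Ada (7.06%) and Adora3 (8.36%) lay within that range, and Entpd1 (25%) and Adora2b (40.1%) above it. Cd68 set the upper end, and Adora3 lay above every other macrophage marker. Against the library labelled M1 the macrophage markers ran from 4.92% to 24.3%, with a median of 10.2%. Adora2b (12.1%) and Ada (21.3%) lay within the range, Ada above every marker but Cd68. Adora3 (3.66%) lay below the range, and Entpd1 (34.0%) and Nt5e (65.3%) above it.

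The same comparison was made with the T-cell markers for the genes that were high in the library labelled M2. The 15 markers stood in the library labelled CD4 at 0% to 9.16% of their level in that labelled M2, with a median of 0.121%. In the library labelled M1 they ran from 0% to 7.84%, with a median of 0.142%. Cd4 itself, at 15.2 FPKM in the library labelled CD4 and 166 FPKM in that labelled M2, set the upper end of the first range. In the kept rows Adora2a (2.56%) and Dpp4 (3.11%) in the library labelled CD4 lay below Cd4 and above every other marker. With all rows summed Adora2a stood at 1.04% there, no longer above the kept row of Cd28 (0.809 of 47.8 FPKM). Nt5e (21.7%) lay above the range. In the library labelled M1, Dpp4 stood at 16.5%, above the second range, and Nt5e at 153%, and Adora2a was listed at 0 in the kept row and at 13.6% with all rows summed. Other markers also differed between these libraries, among them Ccr7, at 6.44, 122 and 0.464 FPKM, and Cdh1, an epithelial adhesion gene, at 48.2, 6.69 and 3.84 FPKM in the libraries labelled M1, M2 and CD4.

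**Figure D4:**
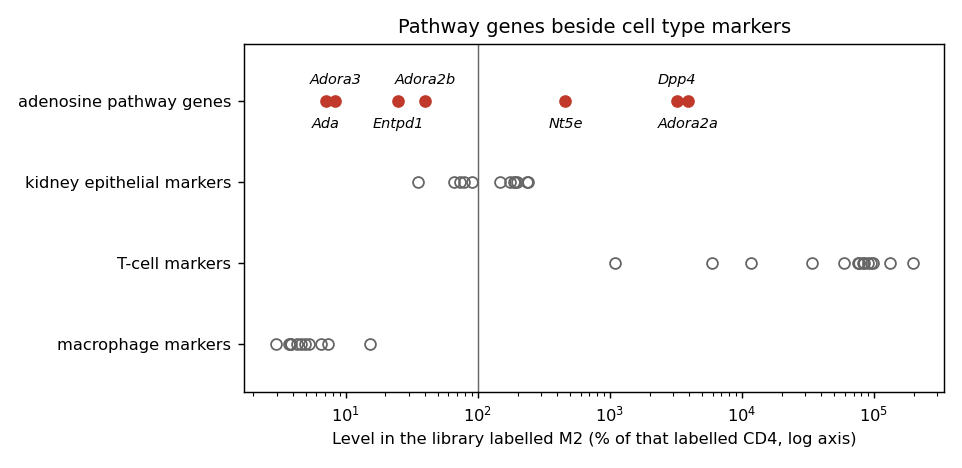
Level in the library labelled M2 as a percentage of that in the library labelled CD4 (log axis) for the 7 genes and for markers of macrophages, T cells and kidney epithelium above 0 in both. Macrophage markers span 2.95% to 15.3%, with Cd68 at the upper end, and Ada and Adora3 fall in that span. In the kept rows Dpp4 and Adora2a lie to the right of 100%, and to the left of every T-cell marker shown but Cd4.

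The wider purine pathway was described by a list of 42 other genes, of which 41 had a level. Between the libraries labelled M2 and CD4, 3 were past 2-fold higher and 14 lower in that labelled M2, with a median log2 ratio of -0.15. Over the 30 genes of the list with at least 1 FPKM in a library, the filter of the background, these were 10% and 46.7%, against 17.0% and 15.0% of all genes. Against the library labelled M1 the counts were 6 higher and 9 lower with a median of 0, or 20% and 30% of the 30 genes against 16.6% and 14.2% of all. Between the libraries labelled CD4 and M1 they were 10 higher and 1 lower in that labelled CD4 with a median of 0.14, or 33.3% and 3.33% against 6.37% and 6.60%. With all rows summed the counts of the list were 4 higher and 13 lower, 7 higher and 7 lower, and 10 higher and 2 lower, in the same order. Receptors for extracellular nucleotides made up much of the lower group. Of these 10 genes, 7 were lower and 1 higher in the library labelled M2 against each of the other two. The 1 higher was P2ry10, counted with them though its known ligands are lipids. The 7 were 87.5% of the 8 genes with at least 1 FPKM, against 15.0% and 14.2% lower among all genes. With all rows summed, 6 were lower and 1 higher against that labelled CD4, and 6 lower and 2 higher against that labelled M1.

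P2ry6, a receptor for UDP, stood at 70.3, 4.14 and 115 FPKM in the libraries labelled M1, M2 and CD4. P2rx7, an ATP-gated channel, stood at 16.6, 4.43 and 38.2 FPKM, and P2rx4, a related channel, at 39.0, 18.2 and 78.1 FPKM. The value of P2rx7 in the library labelled M2 rests on the kept row: summed over all rows it was 38.8 FPKM, a log2 ratio of 0.01 against the library labelled CD4 and of 1.18 against that labelled M1. The ADP receptors P2ry12 (1.71, 0.115 and 6.98 FPKM) and P2ry13 (7.83, 2.06 and 33.9 FPKM) had the same order. Against these, P2ry10, a relative whose known ligands are lipids, was highest in the library labelled M2, at 4.28, 35.8 and 0.434 FPKM.

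The 3 genes that release nucleotides or use NAD were compared between the libraries labelled M2 and CD4. In that labelled M2, 1 was past 2-fold higher and 1 lower, each 33.3% of a small list, against 17.0% and 15.0% of all genes. Of 10 genes listed as other ectonucleotidases 1 was higher and 2 lower, or 16.7% and 33.3% of the 6 with at least 1 FPKM. Cd38, which breaks down NAD outside the cell, stood at 8.68, 6.69 and 40 FPKM in the libraries labelled M1, M2 and CD4, and Panx1, a channel that releases ATP, at 2.02, 7.17 and 2.82 FPKM. The 1 higher gene in the kept rows of those listed as other ectonucleotidases was Entpd5, at 9.01, 25.3 and 9.82 FPKM. It is an enzyme of the endoplasmic reticulum and not of the cell surface. With all rows summed Entpd4 also passed as higher, at 0, 6.57 and 1.27 FPKM (log2 ratio 1.74), and Entpd3 as lower (-1.21). Panx1 then fell inside the threshold (0.96). Enpp1, which splits ATP to AMP and pyrophosphate, was at 4.17, 3.52 and 10.4 FPKM. Entpd5 in the library labelled M2 thus exceeded both others by over 2-fold, where its relative Entpd1 was lowest.

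The 11 measured genes that handle adenosine and inosine inside the cell were compared between the libraries labelled M2 and CD4. In that labelled M2, 2 were past 2-fold lower and 0 higher in the kept rows. The 2 were 20.0% of the 10 genes with at least 1 FPKM, near the 15.0% lower among all genes. With all rows summed Ampd1 passed as higher (log2 ratio 3.23), at 0.0057, 8.36 and 0 FPKM in the libraries labelled M1, M2 and CD4. Of 6 nucleoside transporters 2 were lower and 0 higher in the library labelled M2, 66.7% of only 3 genes with at least 1 FPKM. Pnp, which splits inosine, the product of adenosine deaminase, stood at 15.2, 5.31 and 40.2 FPKM in the libraries labelled M1, M2 and CD4, a value that could include reads of its near-identical neighbour Pnp2. Hprt, which salvages hypoxanthine, was at 81.7, 48.2 and 99.9 FPKM. With all rows summed its log2 ratio between the libraries labelled M2 and CD4 was -0.78, inside the threshold. Hprt had the order of libraries that Ada had, and so did Pnp in the kept rows, but summed over all rows Pnp came to 68.4, 13 and 65.1 FPKM. The transporters Slc29a1 (28.3, 13.3 and 37.4 FPKM) and Slc29a3 (9.62, 8.75 and 34.2 FPKM) were past 2-fold lower in the library labelled M2 than in that labelled CD4, and Slc28a2, a concentrative transporter, was at 8.48, 21.3 and 15.7 FPKM. Adk, the kinase that returns adenosine to AMP, differed by less than 2-fold, at 17.1, 19.7 and 15.3 FPKM.

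Of 21 genes of the cyclic AMP route that the receptors act on, the library labelled M2 had 4 past 2-fold higher and 2 lower against that labelled CD4, and 5 higher and 3 lower against that labelled M1, and 0 passed between the libraries labelled CD4 and M1. Over the 20 genes with at least 1 FPKM, 30% and 40% passed in the first 2 comparisons, near the 32.0% and 30.8% of all genes, and with all rows summed 3, 8 and 1 of the genes passed in the 3 comparisons. The phosphodiesterases, which break down cyclic AMP, accounted for 3 of the higher genes in each of the first 2 comparisons, and with all rows summed for 1 and 3. Pde4b stood at 7.31, 24.0 and 8.09 FPKM and Pde7a at 6.56, 23 and 8.24 FPKM in the libraries labelled M1, M2 and CD4, and Pde7a did not pass in either comparison with all rows summed (log2 ratios of 0.23 and 0.95). Gnai2, an inhibitory G protein subunit, was at 380, 187 and 361 FPKM, and Crem, a cyclic AMP responsive transcription factor, at 15.0, 4.93 and 11.0 FPKM. Prkacb, a catalytic subunit of protein kinase A, was at 27.8, 58.2 and 53.5 FPKM.

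The order of Dpp4 was not shared by the other peptidases set beside it. Of 8 such genes, 0 were past 2-fold higher and 4 lower in the library labelled M2 against that labelled CD4, and 0 higher and 2 lower against that labelled M1. The 4 were 66.7% of the 6 genes with at least 1 FPKM, against 15.0% lower among all genes. The 2 were 33.3% of those 6 genes, against 14.2% lower among all genes. These counts are too small to read further. Dpp7 stood at 24.0, 18.8 and 44.0 FPKM and Dpp8 at 18.4, 8.29 and 18.2 FPKM in the libraries labelled M1, M2 and CD4. Prep was listed at 0 in the kept row of the library labelled M2, and at 0.913 FPKM in a further row, and stood at 28.6 and 22.4 FPKM in those labelled M1 and CD4. Fap, the closest relative of Dpp4, reached 2.89 FPKM in the library labelled CD4.

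**Figure D5:**
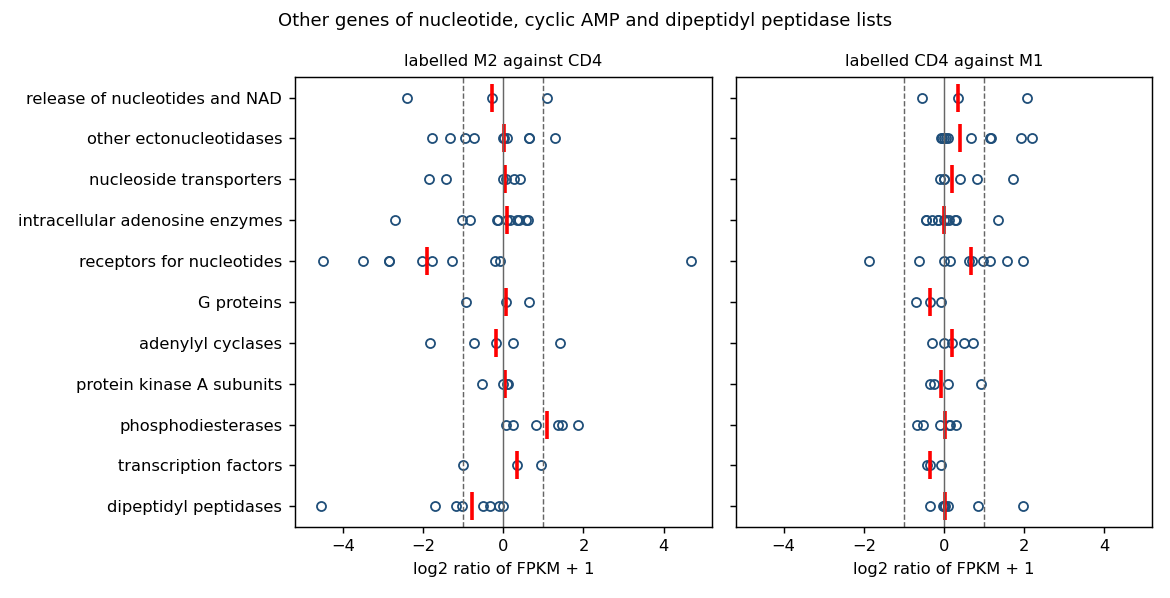
Log2 ratio of FPKM + 1 between the libraries labelled M2 and CD4 (left) and CD4 and M1 (right) for each gene of the lists (open circles), by role, with the median of a role as a red bar and dashed lines at 2-fold. Nucleotide receptors lie mostly left of the line in the left panel, where 7 of 10 were past 2-fold lower in the kept rows. P2ry10, counted among the 10, lies alone on the far right.

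Finally, for each gene the 3 coding genes with the most similar pattern were found, by the Euclidean distance of the 3 log2(FPKM + 1) levels. With 3 libraries behind each distance, a small value describes only levels that lie close together. The levels are those of the kept rows. Txndc11 was nearest to Entpd1 (distance 0.09, 14.1, 4.57 and 17.5 FPKM), followed by S1pr2 and Tpcn2. Celsr1 was nearest to Adora2a (0.08, 0.0284, 4.59 and 0.0633 FPKM), followed by Sema4f and Aff3. Cd300a, which encodes an inhibitory receptor of myeloid cells, was nearest to Ada (0.22, 8.66, 1.37 and 23.8 FPKM), and Sectm1a to Adora3 (0.21, 6.49, 0.387 and 3.22 FPKM). Nt5e (Prkd3, 0.37), Adora2b (Slc2a6, 0.33) and Dpp4 (Traf3ip2, 0.38) had no gene as close. The next genes were Cish and Timm8a1 for Nt5e, Stx3 and Ifi205 for Adora2b, Bcl2a1c and Eif2c2 for Adora3, Tmem87b and Emilin1 for Ada, and Arid3b and Slc2a3 for Dpp4. None of the 21 genes named was another of the 7.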

How the data were processed

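RNA was measured in 1 library for each of 3 sorted cell subsets. The authors aligned paired reads of 51 bases to mm9 with Bowtie and TopHat, and Cufflinks guided by Ensembl release 67 gave the FPKM values the authors deposited, in a table with 1 row per assembled transcript. The joining of the 3 assemblies into a single table is not given in the sources used here. A dash stands where a library has no value.

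Identifiers were matched to the GENCODE annotation of NCBIM37 (Ensembl release 65), where 90316 of 92519 were found. For each identifier the first row with values in all 3 columns was kept, and rows were summed per gene. No column belonged to other samples. Ratios used a pseudocount of 1 FPKM. The background was taken over genes of at least 1 FPKM in a library. With 1 library per subset no test was made and no p-value is given. The spread between replicates is unknown, and every interval covers counting error only.

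Depth is not part of FPKM. It was estimated from the lowest peak of FPKM times length, counting only log2 values under -4.8, over genes with a single coding transcript of 2500 to 8000 bases. That limit came from earlier work on these data. The rule of taking the lowest peak of at least 50% of the highest was added after a test on simulated data, and it left the estimates for the 3 libraries as they were. Fragments are FPKM times length times depth, and the level of 3 fragments is the floor.

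The members, lists, markers and motifs were chosen with earlier results of these data known. The named genes were the 7 genes, markers, list genes past 2-fold with at least 5 FPKM in a library compared, Adora1, and the 3 coding genes nearest to each of the 7. Adk, Fap, Ampd1, Entpd3, Entpd4, Adcy6, Gm8783, Gm13561, Ppm1h and Pnp2 are named outside this rule and were chosen after their values were seen. For Adora3, the record of the receptor was chosen after the table was seen. Python 3.11.15, numpy 2.4.6, pandas 2.3.3 and scipy 1.17.1 were used.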

Additional observations from a re-analysis of the deposited data

Results flagged for a closer look

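Some rows of the table hold a value for only some of the libraries and enter the comparisons above only where all rows were summed. For Adora2a such rows summed to 1.55 FPKM in the library labelled M1 and 6.72 FPKM in that labelled M2, the second of which is above the 4.64 FPKM of the row used. For Dpp4 they held 1.23 FPKM in the library labelled M2 and 0.184 FPKM in that labelled CD4. The second gene record named Adora3, whose transcript Adora3-203 shares 0 bases with Adora3-201 and lies at a locus that RefSeq names Tmigd3, held 1.72 FPKM in the library labelled M2 and 1.36 FPKM in that labelled CD4. All were above the level of 3 fragments, and their cause was not tested.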

How the results depend on the processing

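Of 147 ratios of the 7 genes under other settings, 143 kept their direction and their side of 2-fold. When all rows of an identifier were summed, the log2 ratio of Adora2a between the libraries labelled CD4 and M1 turned from 0.16 to -1.19, because the kept row was listed at 0 in the library labelled M1 and other rows of that library were not, and the ratio of Dpp4 fell to -0.92, inside the threshold. With a pseudocount of 0.1 FPKM, Adora2a (1.13) and Adora3 (-1.17) passed in that comparison, which raised its count from 4 to 6. Without the filter of 1 FPKM, the share of all genes past 2-fold was 11.0% between the libraries labelled M2 and CD4, 10.6% between M2 and M1 and 4.47% between CD4 and M1, since genes near 0 in every library then enter. Summing all rows was also tried for the lists, after the table was seen. There were 44 ratios of list genes past 2-fold with at least 5 FPKM in a library compared. Of these 33 kept their direction and side of 2-fold, 8 fell inside it and 3 reversed. The 3 were P2rx7 in the library labelled M2 against those labelled CD4 (0.01) and M1 (1.18) and Pnp in that labelled CD4 against M1 (-0.07). The number of cyclic AMP genes past 2-fold went from 6 to 3 between the libraries labelled M2 and CD4 and from 0 to 1 between CD4 and M1, and that of the dipeptidyl peptidases from 2 to 1 between M2 and M1. Dividing the libraries by a median ratio or an upper quartile, with factors from 0.979 to 1.03, changed no call of the 7 genes. No paired analysis was possible because there was no second library of any subset. Depth estimated over other transcript lengths ran from 6.1e+07 to 6.14e+07, 5.81e+07 to 6.27e+07 and 7.3e+07 to 7.45e+07 fragments for the libraries labelled M1, M2 and CD4. The levels with the fewest estimated fragments, 22 for Adora2a in the library labelled CD4 and 38 for Adora3 in that labelled M2, are the least precise.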
